A study of Homo sapiens and Mus musculus with 19 samples.

Results

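The chromatin-associated RNA (caRNA) of 10 pluripotency factor genes was measured in mouse embryonic stem cells (mES cells): the core factors Pou5f1, Sox2 and Nanog, and the naive-state factors Klf2, Klf4, Esrrb, Tbx3, Tfcp2l1, Zfp42 and Prdm14. They were chosen by name from the 54446 genes of each mouse count table, and 9 of the 10 carried counts. Of the 19 samples in the series, 3 mES cell libraries treated with a control siRNA (siControl) and 3 treated with siRNA against Nsun2 (siNsun2) were compared here. One further mES cell library, the wild-type sample of a Pspc1 experiment, has no partner group, and the 12 human K562 libraries were not used here. All mES cells were labelled as coming from embryos and were grown on gelatin, after passage off feeder cells, in 15% serum with LIF, 3 µM of the GSK3 inhibitor CHIR99021 and 1 µM of the MEK inhibitor PD0325901. The labels describe no engineered allele in either siRNA group, and name neither the parental line nor the hours of knockdown. The study's methods list commercial siRNAs for mouse Nsun2 and a commercial non-targeting control. NSUN2 is an RNA methyltransferase that places methyl groups on cytosines of RNA, and the comparison asks how caRNA of these genes changed when it was depleted.

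The core factors OCT4 (encoded by Pou5f1), SOX2 and NANOG bind together at enhancers of the pluripotency network and at each other's genes. The naive factors hold the network in its pre-implantation form: LIF signalling through STAT3 is known to sustain Klf4 and Tfcp2l1, and inhibition of GSK3 relieves the repressor TCF7L1 from Esrrb and Tfcp2l1. MEK inhibition keeps FGF and ERK signalling, which drives exit from this state, low. caRNA is the RNA retained on chromatin, rich in unspliced and newly made transcripts, so a level of caRNA is not a level of mature mRNA.

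Before the values, the stretches of the main transcripts in which reads could be taken for reads of an annotated copy were located. This was done because a read that fits more than 1 place was set aside in the count tables. Of the 50-base windows along the main transcript of each gene, 9.17% of Zfp42 were also present in its processed pseudogene Zfp42-ps1, and the shares found in transcripts of other genes were 4.76% for Nanog, 1.39% for Tbx3, 0.944% for Tfcp2l1 and 0.268% for Klf4. The share for Pou5f1 was 15.9%, most of it from Gm19553, an antisense gene at the same locus. The share for Tbx3 came from the antisense gene Tbx3os1, and most of that for Tfcp2l1 from Gm23497, on its strand. These genes overlap the factors, so windows shared with them lie at the same place in the genome. Such windows do not measure the reads set aside for fitting several places. No such window was found for Sox2, Klf2, Esrrb or Prdm14. Introns, and copies outside annotated transcripts, were not searched. Exons cover 3.77% of the span of Esrrb, so most of that span was not searched. For Nanog and Pou5f1 the longest exact coding stretches shared with a processed pseudogene lay in single exons, at chr6:122713415-122713523 (plus strand) and chr17:35510299-35510359 (plus strand) in GRCm38 with GENCODE M21. Their partners were Nanog-ps1 on chromosome X and Gm5712 on chromosome 3. These 2 stretches of core factors, 109 and 61 bases long, are shown because reads lying wholly inside them cannot be placed.
Nanog, shared with Nanog-ps1: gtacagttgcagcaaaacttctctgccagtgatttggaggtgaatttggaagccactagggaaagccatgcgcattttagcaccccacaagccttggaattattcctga
Pou5f1, shared with Gm5712: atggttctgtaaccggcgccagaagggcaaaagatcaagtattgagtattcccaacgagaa

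Klf2 and Klf4 are paralogues whose zinc fingers, at the end of the protein, are encoded by similar sequence. In the last 252 coding bases before the stop codon, 196 bases were identical (77.8%), and the longest run without a difference was 14 bases. The main transcripts of the 2 genes shared no 50-base window, so counts from these transcripts are separate measurements.

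The siControl libraries held 62989044 to 66832780 counts in genes and the siNsun2 libraries 58078323 to 59411087. Reads outside genes made up 19.6% to 20.2% of records in siControl and 28.9% to 29.9% in siNsun2. Olfactory receptor genes, 1074 genes which should be silent in these cells, carried 0.0257 to 0.0291 CPM (counts scaled to a library of 1000000 gene counts) per kb in siControl and 0.0452 to 0.0497 in siNsun2. At that density, such a background would supply at most 3.48% of the counts of any of the 9 measured factors, the highest share being for Prdm14 in siNsun2. That share does not bound the effect of background on the log2 changes, since a fit to background-subtracted counts also rescales the libraries. In that fit 5 factors were called lower in siNsun2 (adjusted p under 0.05), against 8 without subtraction. The part of these library differences in the results was not tested beyond the scaling and background settings given with them. The labels number the replicates without saying that they came from separate cultures. The study calls the replicates behind its genome-wide figures biological, but does not describe separate cultures for these libraries. The p-values therefore measure the spread between these libraries, which may be technical. Nsun2, on chromosome 13, was counted 8325, 7474 and 7913 times in siControl and 6201, 6596 and 6465 times in siNsun2. Its caRNA was lower in every siNsun2 library, from 129 ± 3.45 to 103 ± 3.55 TMM-scaled CPM (mean ± SD, n = 3 each), which is -0.34 on the log2 scale (SE 0.03; quasi-likelihood test of edgeR, adjusted p = 2.78e-16). Most genes at its level moved the same way: of 1453 genes within 0.5 log2 CPM of Nsun2, 83.3% were called lower (median -0.22) and 17.1% had a lower value than Nsun2. Its log2 change stayed between -0.42 and -0.13 and was called lower in all 16 alternative settings. TMM is a scaling factor per library that aims to bring the bulk of genes to the same level. Under TMM the median log2 change of all genes tested was still 0.14, so a value of 0 does not mark the typical gene. All CPM values below are TMM-scaled unless said otherwise.

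Klf4, Tbx3, Tfcp2l1 and Klf2 showed the largest decreases among the factors, whereas Pou5f1 had a value near 0 on the log2 scale and the rest smaller changes. With all genes fitted together, 8 of the 9 factors tested were called lower in siNsun2 (adjusted p under 0.05) and 0 were called higher, with a median log2 change of -0.24. Of all 27603 genes tested, 24.3% were called lower and 25.8% higher, with a median log2 change of 0.14. In either direction 50.2% of all genes were called. The same 8 factors had all 3 siNsun2 values below all 3 siControl values, and Pou5f1 was the only one whose groups overlapped. Of all genes tested, 26.3% had such a separation downwards, 30.3% upwards and 56.7% in either direction. Since these are expressed genes, and genes of high level in these libraries tended to have lower values (median -0.21 for the 5532 genes at a mean log2 CPM of 5 or more), each factor was also set against the genes within 0.5 log2 CPM of its own level. Adding the condition of a 1.5-fold decrease left 3 factors, Klf4, Tbx3 and Tfcp2l1, beside 1.28% of all genes tested.

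**Figure D1:**
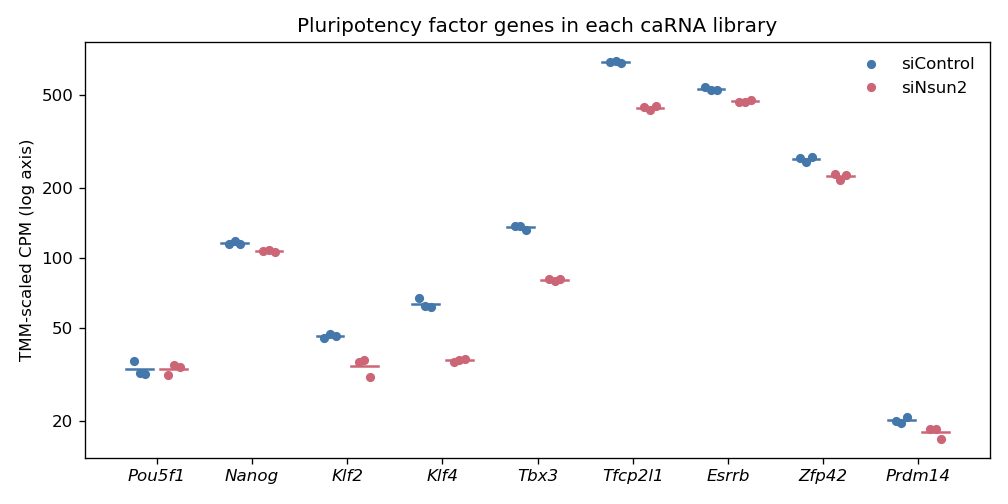
TMM-scaled CPM (log axis) of the 9 measured factor genes in the 3 siControl and 3 siNsun2 libraries, with points for libraries and bars for group means. The groups are well apart for Klf4, Tbx3 and Tfcp2l1 and overlap for Pou5f1.

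Among the core factors, Pou5f1 (ENSMUSG00000024406.16, chr17:35506018-35510772) measured 36.1, 32.0 and 31.9 CPM in siControl and 31.6, 34.8 and 34.2 CPM in siNsun2. The groups overlapped. Its log2 change of 0.01 was not called (SE 0.05; edgeR, adjusted p = 0.922), and it became 0.19 and was called higher with total gene counts as the scale and -0.08 and not called in DESeq2. Its antisense neighbour Gm19553 had 25 to 77 counts per library, against 1898 to 2261 for Pou5f1.

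Nanog (ENSMUSG00000012396.12, chr6:122707489-122714633), a homeodomain factor whose level varies between single stem cells, measured 115, 118 and 115 CPM in siControl and 107, 108 and 106 CPM in siNsun2. The groups did not overlap, yet the gap was small. The log2 change was -0.12 (SE 0.03; edgeR, adjusted p = 0.000885) under TMM, and became 0.07 with total gene counts, 0.09 with TMM factors taken from highly expressed genes and 0.08 with an offset that removes the trend of change with expression level (loess offset), so its direction depended on the scale.

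Sox2 (ENSMUSG00000074637.7, chr3:34650405-34652461, plus strand, 1 exon) was listed at 0 in all 6 libraries. It lies within Sox2ot, a long non-coding gene on the same strand at chr3:34104270-34682619. Of 6488 genes that lie wholly inside another gene on their strand, 6456 (99.51%) were at 0 in all 7 mouse libraries, so this 0 describes the counting of nested genes and gives no level of Sox2 caRNA. Sox2ot measured 57.5, 62.9 and 61.4 CPM in siControl and 80.7, 81.7 and 78.3 CPM in siNsun2, higher in each siNsun2 library (log2 change 0.40, SE 0.04; edgeR, adjusted p = 6.62e-16). The estimated background supplied 27.5% to 32.8% of its counts, and whether reads of Sox2 contributed was not tested.

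Klf4 (ENSMUSG00000003032.8, chr4:55527143-55532466), a zinc finger factor of the LIF branch and one of the reprogramming factors, measured 67.7, 62.2 and 61.7 CPM in siControl. It measured 35.8, 36.4 and 36.9 CPM in siNsun2, and every siNsun2 library lay far below the lowest siControl library. This was the largest change in value among the 9 factors, to 0.569 of the control level, with a log2 change of -0.81 (SE 0.04; edgeR, adjusted p = 7.46e-29). Klf2 (ENSMUSG00000055148.7, chr8:72319033-72321656), the related factor sustained by MEK inhibition, measured 45.3, 47.1 and 46.4 CPM in siControl and 35.7, 36.5 and 30.9 CPM in siNsun2. The groups did not overlap, the third siNsun2 library being the lowest. Klf2 fell by 0.43 on the log2 scale (SE 0.05; edgeR, adjusted p = 6.45e-12), on 1940 to 2838 counts per library.

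Tbx3 (ENSMUSG00000018604.18, chr5:119670669-119684724), a T-box factor of the naive network, measured 138, 137 and 132 CPM in siControl and 81.5, 79.8 and 81.2 CPM in siNsun2. All siNsun2 values lay below all siControl values by at least 50.3 CPM. The log2 change was -0.75 (SE 0.03; edgeR, adjusted p = 1.35e-36). Tbx3os1, its antisense gene, was not called, with a log2 change of -0.08.

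Of the genes of the GSK3 branch, Tfcp2l1 had the larger change in value. Tfcp2l1 (ENSMUSG00000026380.10, chr1:118627945-118685168), a CP2-family factor downstream of both LIF and GSK3 inhibition, measured 698, 701 and 692 CPM in siControl and 446, 433 and 449 CPM in siNsun2. Its log2 change was -0.66 (SE 0.02; edgeR, adjusted p = 7e-45), and the groups were separated by 242 CPM. Esrrb (ENSMUSG00000021255.17, chr12:86361117-86521628), an orphan nuclear receptor and a target of TCF7L1 repression, measured 541, 526 and 527 CPM in siControl and 470, 470 and 480 CPM in siNsun2. The groups were apart by 45.9 CPM. Under TMM Esrrb had a log2 change of -0.17 (SE 0.02; edgeR, adjusted p = 1.45e-10), while the loess offset gave 0.07 and total gene counts 0.01, so its direction depended on the scale as well.

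Zfp42 (ENSMUSG00000051176.6, chr8:43295063-43306980), which encodes the stem cell marker REX1, measured 270, 259 and 271 CPM in siControl and 231, 216 and 228 CPM in siNsun2. The groups did not overlap. The log2 change was -0.24 (SE 0.03; edgeR, adjusted p = 5.6e-14), and it was -0.03 and not called under the loess offset. Its pseudogene Zfp42-ps1, at 4.78 CPM in siControl and 3.79 CPM in siNsun2, is far below it. Prdm14 (ENSMUSG00000042414.7, chr1:13113457-13127163), a PR-domain protein that represses FGF receptor signalling and DNA methyltransferase genes, was the lowest of the 9. It measured 20.0, 19.7 and 20.9 CPM in siControl and 18.4, 18.4 and 16.8 CPM in siNsun2. The log2 change was -0.18 (SE 0.07; edgeR, adjusted p = 0.0284), and the call was lost without the third siControl library (-0.16) or without the third siNsun2 library (-0.14). Across the 16 alternative settings Prdm14 ran from -0.26 to 0.03 and was called lower in 9.

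Genes of the same expression level changed too, which separates the factors into 2 patterns. Around Klf4, the 2031 like-expressed genes had a median log2 change of -0.19 with 72.4% called lower, and 0.197% of them had a lower value than Klf4. For Tbx3 (1531 genes, median -0.22, 82.4% called lower) the share with a lower value was 0.98%, and for Tfcp2l1 (220 genes, median -0.25, 92.3% called lower) it was 0.909%. Klf2 had 5.14% of its 2080 like-expressed genes below it (median -0.19, 67.9% called lower). These 4 genes lay well outside the quartiles of their neighbours. The others did not lie low. Around Nanog 76.8% of 1490 genes had a lower value (82.8% called lower), around Esrrb 72.6% of 296 (89.2% called lower) and around Pou5f1 79.3% of 2099 (61.2% called lower). The shares were 42.8% of 835 genes for Zfp42 (87.7% called lower) and 41.2% of 2287 genes for Prdm14 (44.4% called lower). So a call of "lower" for Nanog, Esrrb, Zfp42 and Prdm14 was shared by most or many genes of their level.

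**Figure D2:**
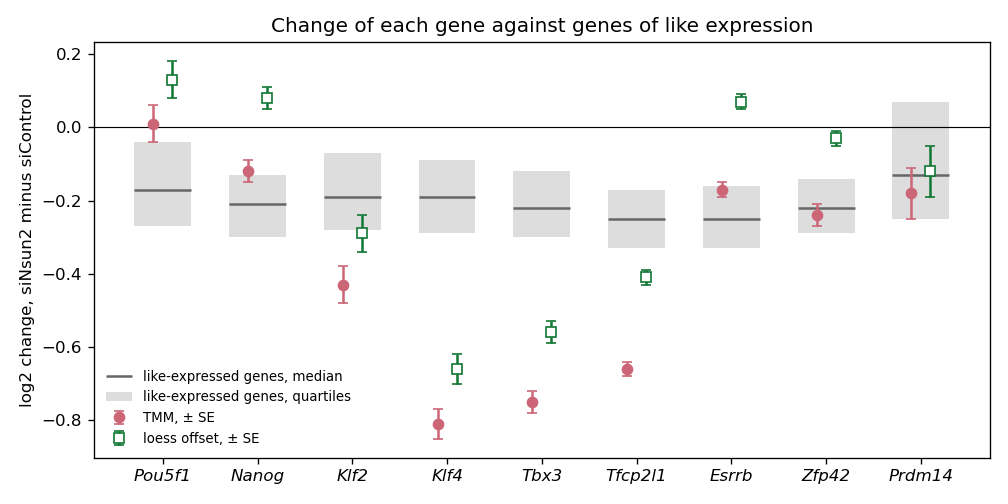
Log2 change of each factor gene (siNsun2 minus siControl) under TMM and under the loess offset, with SE bars. Grey boxes span the quartiles, and a line marks the median, of genes within 0.5 log2 CPM under TMM. The loess points are therefore not on the scale of the boxes. Under TMM, Klf4, Tbx3, Tfcp2l1 and Klf2 lie below their boxes, while Pou5f1, Nanog, Esrrb, Zfp42 and Prdm14 lie in or above theirs.

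With the loess offset, which sets the median log2 change of all genes to -0.02, 18.7% of all genes were called lower and 15% higher. Klf4 then had a log2 change of -0.66, Tbx3 -0.56, Tfcp2l1 -0.41 and Klf2 -0.29, all called lower (edgeR, largest adjusted p 3.26e-06). Nanog (0.08, adjusted p = 0.0315) and Esrrb (0.07, adjusted p = 0.00107) were called higher, and Pou5f1, Zfp42 and Prdm14 were not called. The median log2 change of all genes was 0.14 under TMM, 0.32 with total gene counts and 0.34 with TMM factors from highly expressed genes, and changes of single genes shifted with it. Klf4 remained between -0.90 and -0.61 over 16 alternative settings, Tbx3 between -0.83 and -0.54, Tfcp2l1 between -0.74 and -0.41 and Klf2 between -0.51 and -0.22, and each of the 4 was called lower in all 16. Zfp42 was lower in value in all 16 and called lower in 14, Esrrb was called lower in 12 and higher in 1, and Nanog was called lower in 11 and higher in 2.

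**Figure D3:**
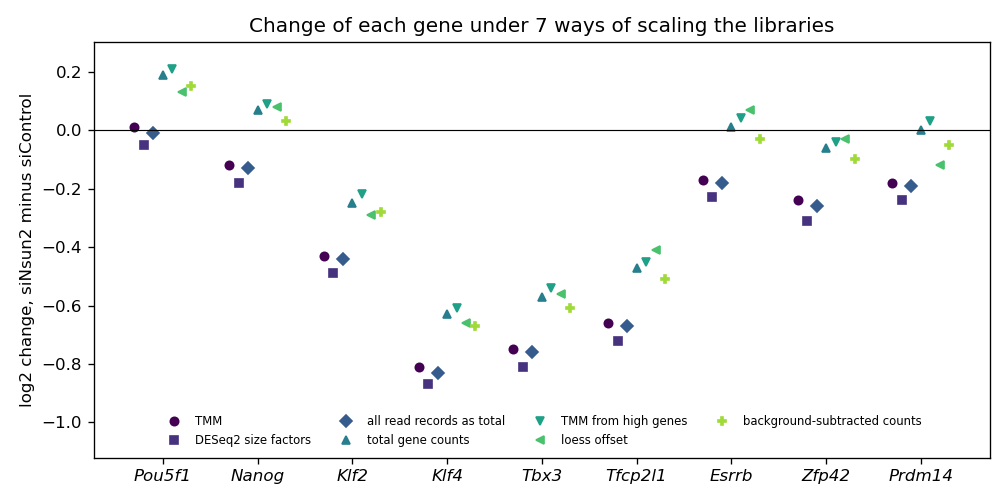
Log2 change (siNsun2 minus siControl) of the 9 measured factor genes under 7 ways of scaling or correcting the libraries, 1 marker per way. Markers of Klf2, Klf4, Tbx3 and Tfcp2l1 stay below 0 throughout, and markers of Pou5f1, Nanog, Esrrb and Prdm14 lie on both sides of it.

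A ratio to Pou5f1 within a library does not depend on scaling. Klf4 had a log2 ratio to Pou5f1 of 0.91, 0.96 and 0.95 in siControl and 0.18, 0.07 and 0.11 in siNsun2, a difference of -0.82. For Tbx3 the ratios were 1.93, 2.10 and 2.04 against 1.37, 1.20 and 1.25, and the difference was -0.76. Tfcp2l1 differed by -0.66, Klf2 by -0.44, Zfp42 by -0.25 and Esrrb by -0.18, and for these 6 the groups did not overlap. Each gave a two-sided exact permutation p = 0.1, the smallest that 3 against 3 libraries allow, and 0.133 after Benjamini-Hochberg adjustment over the 8 ratios. Nanog (-0.13) and Prdm14 (-0.19) overlapped between groups, with an exact permutation p = 0.2 for each. Thus no ratio could pass 0.05 at this number of libraries, and the ratios show unequal change, with Klf4 and Tbx3 the farthest from Pou5f1. The share of all genes whose ratio to Pou5f1 separates the groups was not counted. Pou5f1 itself changed by 0.01, against a median of -0.21 for the 5532 genes at a mean log2 CPM of 5 or more. A lower ratio to Pou5f1 is therefore not particular to the 6 genes. Set against the summed counts of all factors instead, the differences were -0.41 for Klf4, -0.35 for Tbx3 and -0.26 for Tfcp2l1, and that of Klf2 was -0.04 (exact permutation p = 0.9). That sum includes the gene itself, and Tfcp2l1 and Esrrb, at 697 and 531 CPM in siControl, supply the most counts to it. These differences are therefore largely relative to Tfcp2l1 and Esrrb.

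**Figure D4:**
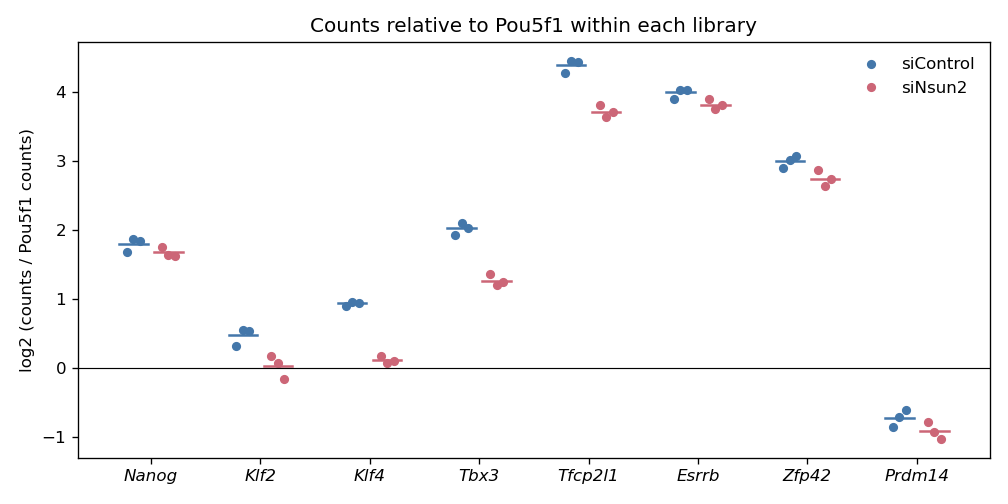
Log2 ratio of the counts of each factor gene to those of Pou5f1 in the same library (pseudocount 0.5), with points for the 3 siControl and 3 siNsun2 libraries and bars for means. The siControl and siNsun2 points are separate for Klf2, Klf4, Tbx3, Tfcp2l1, Esrrb and Zfp42, and overlap for Nanog and Prdm14.

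Levels were ordered per kb of gene span, since reads of caRNA fall on introns too. In siControl Zfp42 was highest at 22.4 ± 0.546 CPM per kb (SD, n = 3), followed by Klf2 at 17.6, Nanog at 16.3, Tfcp2l1 at 12.2, Klf4 at 12.0, Tbx3 at 9.65, Pou5f1 at 7.01, Esrrb at 3.31 and Prdm14 at 1.47. Tfcp2l1 and Klf4 did not differ beyond their spread, and all other neighbours in this order were separate. In siNsun2 the order was Zfp42 at 18.9, Nanog at 15.0, Klf2 at 13.1, Tfcp2l1 at 7.74, Pou5f1 at 7.05, Klf4 at 6.83, Tbx3 at 5.75, Esrrb at 2.95 and Prdm14 at 1.30 CPM per kb, in which Pou5f1 and Klf4 overlapped. Pou5f1 thus passed Tbx3 in the order, and was no longer separate from Klf4. Per kb of exon the siControl order differed, with Zfp42 at 142, Esrrb at 87.8, Tfcp2l1 at 73.9 and Nanog at 51.8 CPM per kb, because exons cover 3.77% of the span of Esrrb and 70.4% of that of Klf2. Together the factors took 0.177% to 0.181% of gene counts in siControl and 0.154% to 0.155% in siNsun2.

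The gene with the most similar pattern to each factor was sought among tested protein-coding genes within 1 log2 CPM, by the Euclidean distance over the 6 libraries of log2 CPM centred on the siControl mean. It was Traf4 for Pou5f1 (distance 0.0513), Lig3 for Nanog (0.0262), Gm14326 for Klf2 (0.0691) and Arl14ep for Klf4 (0.0366). It was Myo10 for Esrrb (0.0167), Cpt1a for Tbx3 (0.0604), Eif2s2 for Tfcp2l1 (0.0696), Psip1 for Zfp42 (0.0307) and Zfp777 for Prdm14 (0.0466). Each was the closest of 559 to 4137 genes compared, and the distance describes these libraries only.

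The wider pluripotency network was mixed. Of 24 further network genes, all tested, 9 were called higher and 8 lower, with a median log2 change of -0.00. For this list and those that follow, the shares of all genes tested are 25.8% called higher and 24.3% lower, with a median of 0.14 under TMM, and 15% higher and 18.7% lower, with a median of -0.02, under the loess offset. Dppa3, a maternal factor that marks the naive state, had the highest value, from 3.70 ± 0.187 to 5.87 ± 0.301 CPM (log2 change 0.66; edgeR, adjusted p = 2.89e-05). Klf5, a further Krüppel-like factor of naive cells, had the lowest, from 194 ± 2.85 to 144 ± 4.58 CPM (log2 change -0.43; edgeR, adjusted p = 3.25e-24), and it stayed lower under the loess offset (-0.22). The most abundant were Nr5a2, a nuclear receptor that binds the Pou5f1 gene (-0.08), and Fbxo15, a target of the core factors (-0.17), both called lower under TMM and higher under the loess offset (0.15 and 0.06). Under the loess offset the count of the list was 14 higher and 4 lower, with a median of 0.16.

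Genes of the formative and primed states, which rise as naive cells exit, were called higher in 5 of 14 and lower in 0, with a median log2 change of 0.28 that became 0.02 under the loess offset. Zic2, a zinc finger factor of primed cells, was 10.7 ± 1.59 CPM in siControl and 18.9 ± 1.67 CPM in siNsun2 (log2 change 0.82; edgeR, adjusted p = 4.54e-14). The DNA methyltransferase genes Dnmt3a (0.32) and Dnmt3b (0.20) were also called higher, and so they were under the loess offset (0.45 and 0.35), whose count was 5 higher and 1 lower. Fgf5 and Otx2, the usual markers of exit, stood at 0.693 and 2.24 CPM in siControl and were not called, and the background estimate reached 81.7% to 120% of the Fgf5 counts. For 10 of the 14 genes the level lay within 10 times the background estimate.

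In the FGF and ERK list 4 of 14 genes were called higher and 6 lower, with a median of -0.02. Sos1, which encodes an exchange factor for RAS, was called lower under TMM, from 273 ± 2.67 to 231 ± 4.77 CPM (log2 change -0.24; edgeR, adjusted p = 2.31e-14), and was not called under the loess offset (-0.02; edgeR, adjusted p = 0.457). The feedback inhibitor Spry2 was the lowest (-0.32), whereas Spry4, of the same family, and Etv4, an ETS factor induced by ERK, were the highest (0.73 each). Under the loess offset 6 were higher and 4 lower, with a median of 0.02.

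**Figure D5:**
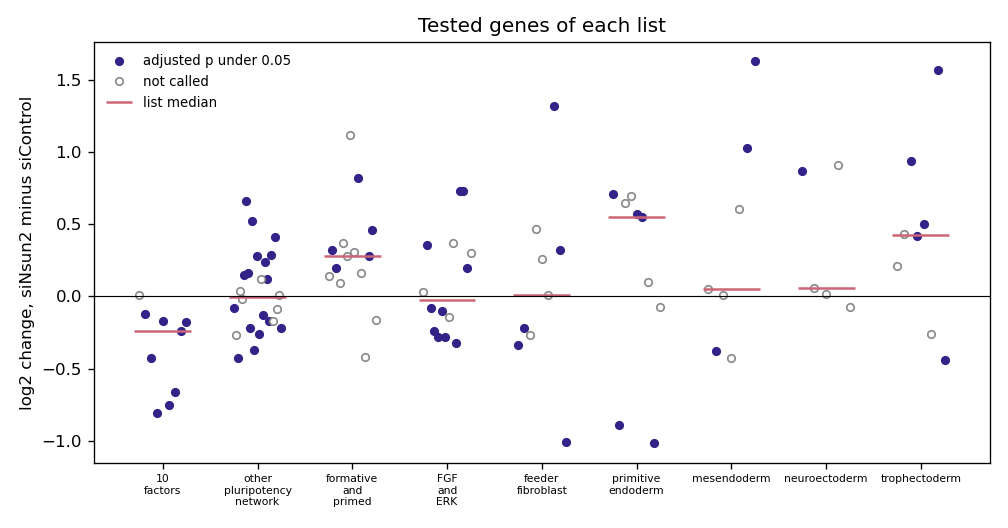
Log2 change (siNsun2 minus siControl) under TMM of the tested genes of each list, with filled points for adjusted p under 0.05, open points for genes not called and a line at the list median. The factor genes have a median of -0.24, the other network genes of -0.00 and the formative and primed genes of 0.28; under the loess offset, which is not plotted, these medians are -0.12, 0.16 and 0.02.

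Markers of other cells that such cultures could hold were measured over their whole lists, and their part in the results above was not tested. Sums are in CPM of gene counts, without TMM scaling and without subtraction of background. The background estimate per kb was higher in siNsun2 (0.0452 to 0.0497 CPM) than in siControl (0.0257 to 0.0291 CPM), and its part in the sums was not tested. The 10 feeder fibroblast markers summed to 60.0 to 61.4 CPM in siControl and 60.7 to 62.7 CPM in siNsun2. Of the 9 tested, 2 were called higher and 3 lower, from Twist2 (1.32, with a background estimate of 91% to 266% of its counts) to Pdgfrb (-1.01), with Fbn1 (0.32) and Col1a1 (-0.34) the most abundant. The 10 primitive endoderm markers summed to 305 to 307 CPM in siControl and 197 to 202 CPM in siNsun2, with 3 higher and 2 lower of 9 tested. That sum is carried by the laminin gene Lama1, which went from 273 ± 2.36 to 134 ± 0.97 CPM (log2 change -1.02; edgeR, adjusted p = 5.63e-52). Gata4 went the same way, from 12.9 to 6.98 CPM (-0.89; edgeR, adjusted p = 6.09e-13), with a background estimate of 15.4% to 51.5% of its counts. Both stayed lower under the loess offset (-0.81 and -0.94). Dab2 was called higher under TMM (0.55) and under the loess offset (0.46), with a background estimate of 58.3% to 80.7%. Pdgfra was called higher under TMM only (0.57), with a background estimate of 48.6% to 72.8%. Gata6 was at 1.29 and 2.11 CPM (0.71), a call lost under the loess offset (0.27; edgeR, adjusted p = 0.385), and Col4a1 at 15.6 and 16.7 CPM was not called. The 8 mesendoderm markers summed to 8.98 to 9.40 CPM in siControl and 11.1 to 13.1 CPM in siNsun2, with 2 higher and 1 lower of 7 tested. The called genes ran from Cer1 (1.63, background estimate 30.4% to 212% of its counts, not called under the loess offset) to Eomes (-0.38). Kdr was at 2.07 and 4.23 CPM, with a background estimate of 40.2% to 69.1% of its counts. It was called higher under TMM and under the loess offset (0.73). The 8 neuroectoderm markers summed to 65.4 to 68.5 and 73.0 to 77.5 CPM, with 1 of 5 tested, Pax6 (0.87), called higher. Pax6 was at 1.33 and 2.43 CPM, with a background estimate of 49.6% to 74% of its counts. It was not called under the loess offset (0.45). Map2 (-0.07) and Nes (0.06) were the most abundant, and Sox1 and Tubb3, both inside another gene on their strand, were at 0 in all libraries. The 8 trophectoderm markers summed to 24.7 to 28.9 and 36.0 to 38.3 CPM, with 4 higher and 1 lower, from Hand1 (1.57, background estimate 45.3% to 353% of its counts, not called under the loess offset) to Plet1 (-0.44), and Tfap2c the most abundant (16.3 and 21.8 CPM). Most of these markers lay within 10 times the background estimate, in 9, 9, 7, 7 and 7 genes of the lists in this order. In bulk libraries, fewer cells of a type and less RNA per cell cannot be told apart.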

How the data were processed

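The deposited mouse tables hold raw counts of caRNA reads per gene, made by the authors from rRNA-depleted libraries. The submitters' processing notes name Trimmomatic 0.39, HISAT2 2.2.1 and HTSeq 0.12.4, and the study's methods name mm10 with GENCODE gene models and ERCC spike-ins. The tables analysed here hold 0 ERCC lines, so no spike-in scaling was made, and the feature type and strand setting of the counting are not given in the sources used here. Gene IDs were matched to GENCODE M21 (99.93%). The special lines for reads outside genes (19.6% to 29.9% in the 6 libraries compared), ambiguous reads (2.13% to 2.52%) and multiple alignments (4.77% to 4.83%) were left out of library sizes.

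Counts were fitted with edgeR 4.0.16 in R 4.3.3 (filterByExpr with a minimum of 10 counts, TMM, robust quasi-likelihood test, group as the only term, two-sided) on all 27603 genes that passed, with Benjamini-Hochberg adjustment over them and a threshold of 0.05. The script was tested on simulated data. DESeq2 1.42.0, other scalings, filters, a replicate block and leaving out each library were alternatives. Ratios to Pou5f1 used a pseudocount of 0.5 counts and an exact permutation test. Totals of 58078323 to 66832780 gene counts set the precision.

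The factors and the other lists were chosen with earlier results of these data known. Genes named were the 10 factors, Nsun2, in each other list the called genes with the highest and lowest log2 change and the 2 most abundant genes, and the nearest gene to each factor. Sox2ot, Gm19553, Tbx3os1, Zfp42-ps1, Fgf5, Otx2, Gata4, Dab2, Pdgfra and Spry4 beside Etv4 were named after their values were seen. One gene that this rule names is not reported here.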

Additional observations from a re-analysis of the deposited data

Results flagged for a closer look

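The single wild-type library of the Pspc1 experiment entered no comparison. The share of all genes outside the siControl range in it was not counted. The values below are therefore not read as particular to the factors. In CPM of gene counts, without TMM scaling, Pou5f1 was 80.5 there against 29.9 to 33.8 in siControl, and Zfp42 was 500 against 244 to 254. Prdm14 was 36.3 against 18.6 to 19.6, Tbx3 208 against 123 to 129, Esrrb 748 against 493 to 507, Tfcp2l1 958 against 647 to 661 and Nanog 131 against 108 to 111. Klf2, at 28.8 against 42.5 to 44.4, and Klf4, at 54.3 against 57.7 to 63.5, lay below the siControl range, and Sox2 was at 0. The library held 91990658 gene counts, 10.7% of its records lay outside genes, and there is no replicate check on it.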

How the results depend on the processing

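Except where stated, the cause was not tested. Of 160 alternative log2 changes of the factors and Nsun2, 132 kept their direction and call, 15 lost a call (6 of them with the sign reversed), 3 were called in the other direction, 2 gained a call and 8 reversed without a call in either fit. Of 204 alternative counts of calls 165 stayed within 1.5 times, and 12 of 18 ranks moved. The ratios to Pou5f1 could not reach 0.05, so keeping their side of it says nothing, and 4 of 64 changed sign. The factors called lower, 8 under TMM, were 5 with total gene counts (1 higher), 4 with TMM from high genes (2 higher), 4 with the loess offset (2 higher), 5 after background subtraction, chosen after seeing the data, and 3 with a 1.5-fold change in addition, a stricter condition by construction. Leaving out 1 library gave 7 to 8.

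Pou5f1 was -0.05 with DESeq2 size factors, 0.19 with total gene counts, -0.01 with all read records, 0.21 with TMM from high genes, -0.08 in DESeq2, -0.01 with no filter and -0.03 to 0.06 without single libraries. Nanog was 0.07, 0.09 and 0.08 with total gene counts, TMM from high genes and loess, -0.06 with the stricter filter and 0.03 after background subtraction. Esrrb was 0.01, 0.04 and 0.07 under the first 3 of these settings and -0.03 after background subtraction. Zfp42 was -0.04 with TMM from high genes and -0.03 with loess. Prdm14 was 0.00, 0.03 and -0.12 under those 3, -0.12 with the stricter filter, -0.05 after background subtraction and -0.20 to -0.14 without single libraries. Relative to the sum of all factors instead of Pou5f1, Nanog (0.28), Esrrb (0.23), Zfp42 (0.15) and Prdm14 (0.22) were higher, and Klf2 (-0.04), Klf4 (-0.41), Tbx3 (-0.35) and Tfcp2l1 (-0.26) were nearer to 0, the sum itself being lower in siNsun2.

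All genes called lower numbered 6716 under TMM, 2584 with total gene counts, 2094 with TMM from high genes, 3512 after background subtraction and 352 with 1.5-fold in addition. Those called higher numbered 7128, 10248 with total gene counts, 5264 with 1.5-fold in addition, 10918 with TMM from high genes, 4138 with loess and 2864 after background subtraction. Calls in the lists changed as follows: with 1.5-fold in addition, 1 for the other network genes, 1 formative and primed, 2 FGF and ERK, 2 feeder, 3 primitive endoderm and 2 trophectoderm; after background subtraction, 3 feeder, 2 primitive endoderm, 1 mesendoderm and 2 trophectoderm; with loess, 3 primitive endoderm, 0 neuroectoderm and 2 trophectoderm; in DESeq2, 3 formative and primed, 2 neuroectoderm and 3 trophectoderm. Neuroectoderm calls were 2 with DESeq2 size factors and 3 with total gene counts or TMM from high genes. Without single libraries, mesendoderm calls were 1 to 3 (1 without the first siControl library), neuroectoderm 1 to 2 and trophectoderm 3 to 5.

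Ranks by level per kb of exon were 8 for Pou5f1, 4 for Nanog, 5 for Klf2, 6 for Klf4, 2 for Esrrb, 7 for Tbx3 and 3 for Tfcp2l1. In siNsun2 they were 5, 2, 3, 6 and 7 for Pou5f1, Nanog, Klf2, Klf4 and Tbx3.

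Same-numbered replicates did not deviate together (r = -0.0221, 0.03 and -0.037 over 10086 genes). Whether they were cultured or prepared together cannot be told from this, since a shared effect on few genes would not show. A replicate block gave 8 factors lower and 0 higher, 6682 genes lower and 7016 higher. A log2 change such as that of Prdm14 is near what these libraries can resolve (SE 0.07).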
